A study of Mus musculus with 2 samples.

Results

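Mir322, Mir503, Mir351 and Mir542 form a cluster of microRNA (miRNA) hairpin genes within a few kilobases of each other on the mouse X chromosome. Its members were taken by gene name, as the rows of the deposited count tables whose Ensembl identifiers carry these names in GENCODE M21. These are 4 of 2202 annotated miRNA genes. The rule uses no measured value, but earlier results of these data were known when it was set. Small RNA of the hippocampus was sequenced in 2 libraries of female B6CASTF1/J mice, the F1 cross of the C57BL/6J and CAST/EiJ strains, at 36 days of age. Both libraries form 1 untreated group and are numbered replicates 1 and 2 by the labels. They carry separate biosample entries and the same donor entry, so it is not stated that they came from separate animals. The spread between them may be technical, and no condition can be compared.

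The genes of such a cluster are transcribed together as one long primary transcript, from which the nuclear enzyme Drosha cuts each hairpin and Dicer then cuts the mature miRNA of about the length of the inserts sequenced here. A mature miRNA finds messenger RNAs mainly through its seed, bases 2 to 8 counted from its 5′ end. miR-322 and miR-503 are known for holding back the cell cycle in differentiating cells, above all in muscle, where they repress cell-cycle genes such as Cdc25a. Both are usually placed in the wider miR-15/16 group, and miR-351 shares its seed with miR-125, a miRNA group abundant in neural tissue.

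The mature sequences of the 4 genes show which targets each could share with other miRNAs, and are given here from RefSeq (build GRCm38.p6) for the arm usually taken as the guide, with the seed in capitals. They are the reference sequence, not that of the CAST/EiJ alleles.
miR-322-5p: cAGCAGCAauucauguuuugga
miR-503-5p: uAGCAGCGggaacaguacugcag
miR-351-5p: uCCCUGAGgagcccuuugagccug
miR-542-3p: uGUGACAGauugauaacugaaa

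The related miRNAs outside the cluster are shown beside them, because they carry the same seed as miR-322-5p or miR-351-5p.
miR-16-5p: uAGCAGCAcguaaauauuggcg
miR-15a-5p: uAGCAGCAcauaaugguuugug
miR-125a-5p: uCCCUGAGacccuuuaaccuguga
miR-125b-5p: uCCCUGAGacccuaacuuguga

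The 4 members thus carry 4 different seeds. The seed of miR-322-5p was found in 9 other mature miRNAs of the RefSeq table, among them miR-15a-5p, miR-15b-5p, miR-16-5p, miR-195a-5p and miR-497a-5p. Over the first 8 bases, counted from 1 at the 5′ end, miR-322-5p and miR-16-5p differed by C1U alone, outside the seed. miR-503-5p differed from miR-16-5p over the same 8 bases by A8G, the last base of the seed, and no other mature miRNA of the table had its seed. miR-351-5p matched miR-125a-5p in all 8 of the first 8 bases, and its seed was found in 4 other mature miRNAs. The seed of miR-542-3p was found in no other. GC content was 40.9% in miR-322-5p, 56.5% in miR-503-5p, 62.5% in miR-351-5p and 31.8% in miR-542-3p. Each of these 4 sequences came from 1 gene of the table.

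All 4 genes lie on the minus strand of chromosome X (assembly mm10). In the order of transcription, Mir322 (ENSMUSG00000065418.1) spans 53054255 to 53054349, Mir503 (ENSMUSG00000076122.1) 53053984 to 53054054, Mir351 (ENSMUSG00000065503.1) 53053255 to 53053353 and Mir542 (ENSMUSG00000076140.1) 53049403 to 53049487. The gaps between neighbours were 200 bases from Mir322 to Mir503, 630 bases from Mir503 to Mir351 and 3767 bases from Mir351 to Mir542. Another 3 miRNA genes, Mir450-2, Mir450-1 and Mir450b, follow 1035 bases after Mir542, and the 7 genes span 6353 bases. None of the 7 hairpins overlapped another annotated gene, so the annotation places them between genes and shows no transcript that joins them. The noncoding gene C430049B03Rik ends 696 bases upstream of Mir322 on the same strand, and the lincRNA Gm28730 lies between Mir351 and Mir542. The hairpin of Mir322, at chrX:53054255-53054349 on the minus strand, is shown with both mature arms in capitals, because reads of either arm are counted for the gene.
Mir322 hairpin: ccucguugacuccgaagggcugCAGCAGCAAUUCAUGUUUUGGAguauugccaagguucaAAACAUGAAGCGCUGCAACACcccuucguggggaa

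Levels are given as reads in the sense orientation per 1000000 such reads on all miRNA genes (CPM). These totals were 2928141 reads in replicate 1 and 3644157 in replicate 2, so that 1 read was 0.342 CPM and 0.274 CPM. A further 38.9% and 45.8% of all reads had several equally good places in the genome and were assigned to no gene. Lists of tissue markers were as follows. The neuron list had 5 of 5 genes with at least 10 reads in each library, the minimum used for calling a gene detected, and summed to 31668 CPM in replicate 1 and 37435 CPM in replicate 2. Of the 8 muscle miRNA genes 2 were detected, Mir206 at a mean of 204 CPM and Mir499 at 9.44 CPM. The list summed to 247 CPM in replicate 1 and 182 CPM in replicate 2. Mir1a-1, Mir133a-1, Mir133a-2 and Mir133b had no read in either library. None of the 5 pluripotency genes was detected. Several genes of these lists have near-identical copies, whose reads can be lost to several places.

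Mir322 was the leading gene of the cluster by a wide margin, and all 4 members were detected, against 17.1% of all miRNA genes. Mir322 had 4314 reads in replicate 1 and 3824 in replicate 2, or 1473 CPM (exact 95% binomial interval 1430 to 1518) and 1049 CPM (1016 to 1083). Its mean was 1261 ± 300 CPM (SD, n = 2), which put it at rank 85 of all miRNA genes and at rank 7 of those on the X chromosome. The replicate with fewer reads in all thus held more reads of Mir322.

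Mir351, the member with the miR-125 seed, came next, and it stood in the opposite order. It had 323 reads in replicate 1 and 815 in replicate 2, or 110 CPM (98.6 to 123) and 224 CPM (209 to 240), with a mean of 167 ± 80.1 CPM (SD, n = 2) and rank 184. Its level was close to the median of all detected miRNA genes, 152 CPM. Its higher value, in replicate 2, was still well under the lower value of Mir322.

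Mir542 and Mir503 were scarce. Mir542, whose 3p miRNA is known to repress the cell-survival gene Birc5, had 107 and 117 reads in replicates 1 and 2, or 36.5 CPM (29.9 to 44.2) and 32.1 CPM (26.6 to 38.5), with a mean of 34.3 ± 3.14 CPM (SD, n = 2). Mir503, the close neighbour of Mir322, had 51 and 52 reads, or 17.4 CPM (13.0 to 22.9) and 14.3 CPM (10.7 to 18.7), with a mean of 15.8 ± 2.23 CPM (SD, n = 2). For both genes the intervals of the 2 libraries overlapped widely. Intervals cover counting error only, since the counts are of reads and not of molecules.

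The order Mir322, Mir351, Mir542, Mir503 was the same in both libraries, and the values of no neighbouring members overlapped. Per 100 bases of hairpin the order was the same, at 1328, 169, 40.4 and 22.3 CPM. The hairpins, of 71 to 99 bases, differ too little in length to change it. Levels of different miRNAs also depend on how well each is joined to the sequencing adapters, and the effect of this on the order was not tested. With 2 libraries no exact test over samples can reach the threshold of 0.05, so the order is given as a description.

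**Figure D1:**
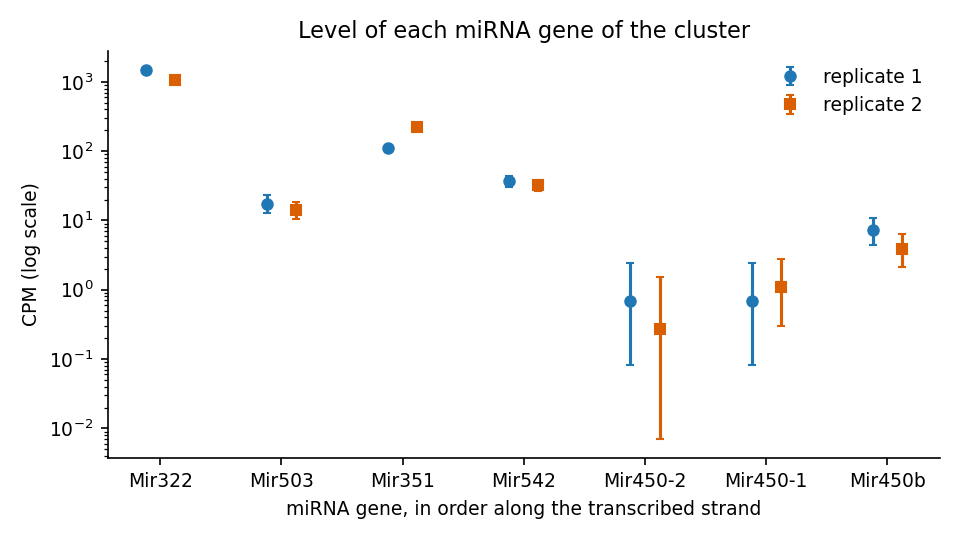
Level in CPM (log axis) of the 7 miRNA genes of the cluster, in their order along the transcribed strand, in replicate 1 (circles) and replicate 2 (squares), with exact 95% binomial intervals. Mir322 is highest in both libraries at 1473 and 1049 CPM, Mir503 beside it is at 17.4 and 14.3 CPM, and only Mir351 among the 4 members is higher in replicate 2.

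The genes at the end of the cluster gave few reads. Mir450b had 21 and 14 reads in replicates 1 and 2, with a mean of 5.51 ± 2.35 CPM (SD, n = 2), and was detected. Mir450-1 had 2 and 4 reads, and Mir450-2 had 2 and 1, so neither was detected and their levels could not be ordered. Both of these hairpins give the same mature miRNA, miR-450a-5p, as the RefSeq sequences show, and it is printed with miR-450b-5p because only the latter has a single gene.
miR-450a-5p: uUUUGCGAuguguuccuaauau
miR-450b-5p: uUUUGCAGuauguuccugaaua

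The sequences of miR-450a-5p and miR-450b-5p were the same at 15 of 22 positions, and within the seed they differed by G7A and A8G. A read of miR-450a-5p has 2 places in this cluster alone, and reads with several places were counted apart. Counts of Mir450-1 and Mir450-2 are therefore uncertain, and how many reads they lost was not tested. The 2 and 4 reads of Mir450-1 do not show that miR-450a-5p was absent.

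The 4 members together held nearly the same number of reads in both libraries, 4795 in replicate 1 and 4808 in replicate 2, which were divided differently among them. This was 0.164% and 0.132% of the assigned reads, and a summed level of 1638 and 1319 CPM (1478 ± 225 CPM, SD, n = 2). Mir322 took 90.0% of the 4795 reads (exact Clopper-Pearson 95% interval 89.1% to 90.8%) and 79.5% of the 4808 (78.4% to 80.7%). Mir351 took 6.74% (6.04% to 7.48%) and 17.0% (15.9% to 18.0%). The shares of Mir542, 2.23% and 2.43%, and of Mir503, 1.06% and 1.08%, lay inside each other's intervals. Only the shares of Mir322 and Mir351 thus differed beyond counting error. As the shares have a fixed sum, a rise of 1 lowers the sum of the rest, though not each of them.

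**Figure D2:**
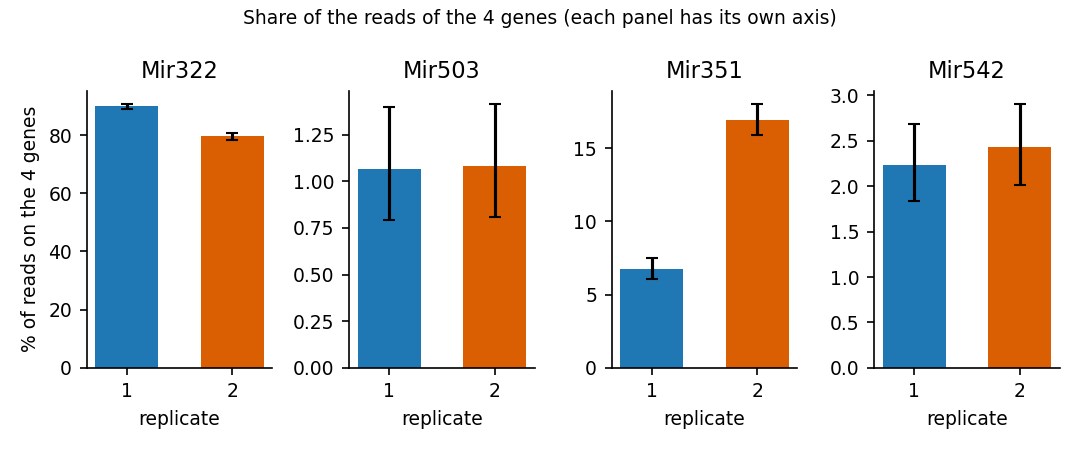
Share (percent) of the reads on Mir322, Mir503, Mir351 and Mir542 that each gene held, per library, with exact 95% intervals as black bars. Each panel has its own axis from 0. Mir351 held 6.74% in replicate 1 and 17.0% in replicate 2, and the intervals of Mir503 and of Mir542 overlap between the libraries.

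Ratios between members within a library do not depend on how the libraries are scaled, and were compared for all 6 pairs. For each pair, the ratio of reads in replicate 1 was divided by that in replicate 2, with a conditional exact 95% interval. There were 84.6 reads of Mir322 per read of Mir503 in replicate 1 and 73.5 in replicate 2, which differed 1.15-fold (0.764 to 1.73). Mir322 over Mir542 was 40.3 and 32.7, a difference of 1.23-fold (0.937 to 1.62). Mir503 over Mir542 was 0.477 and 0.444, a difference of 1.07-fold (0.654 to 1.76). These intervals include 1, and at this depth they also include differences of more than 1.5-fold.

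The 3 pairs that include Mir351 differed beyond counting error. Mir322 over Mir351 was 13.4 in replicate 1 and 4.69 in replicate 2, a difference of 2.85-fold (2.48 to 3.27). Mir503 over Mir351 was 0.158 and 0.0638, a difference of 2.47-fold (1.61 to 3.80). Mir351 over Mir542 was 3.02 and 6.97, and the ratio of these ratios was 0.434 (0.320 to 0.587). Each of the other 3 members was thus less abundant relative to Mir351 in replicate 2. These intervals compare 2 libraries and carry no replicate of either.

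**Figure D3:**
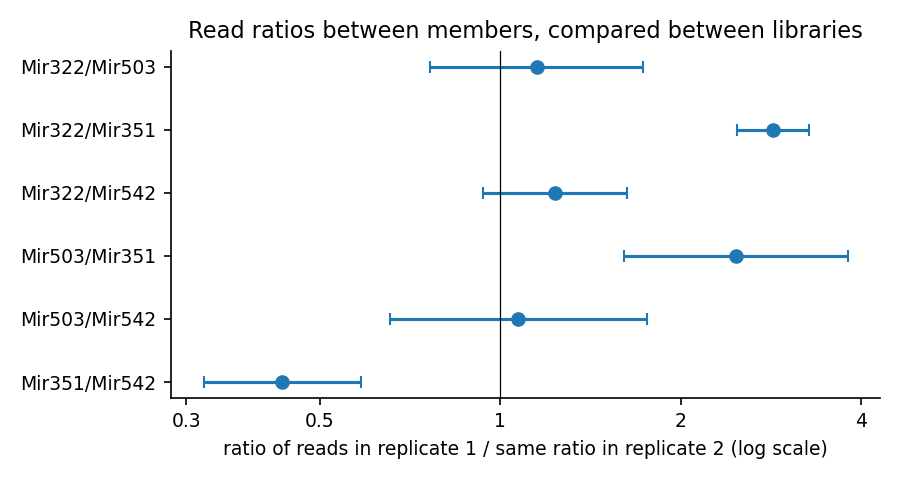
Ratio of reads between each pair of members in replicate 1, divided by the same ratio in replicate 2 (log axis), with conditional exact 95% intervals. The vertical line marks 1, and the intervals of the 3 pairs with Mir351 lie away from it, at 2.85, 2.47 and 0.434.

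Between the libraries, 2 of the 4 members were called different, 1 in each direction. For each gene, the division of its reads between the libraries was set against that of the totals in an exact binomial test (two-sided, threshold 0.05), with Benjamini-Hochberg adjustment over 474 miRNA genes. This test takes counting error as the only noise between the 2 libraries, so its p-values do not measure the spread between samples. It called 58.0% of these genes, with 26.4% above in replicate 1 and 31.6% above in replicate 2, so a count of 2 of 4 lies near the background. Mir322 was 1.40-fold higher in replicate 1 (exact 95% interval 1.34 to 1.47, adjusted p = 6.66e-52, two-sided exact binomial test). Mir351 was 2.03-fold higher in replicate 2 (1.78 to 2.31, adjusted p = 2.43e-28, same exact test). Mir503 was not called at 1.22-fold (0.813 to 1.83, adjusted p = 0.413, same exact test), nor was Mir542 at 1.14-fold (0.867 to 1.49, adjusted p = 0.443, same exact test), both with the higher CPM in replicate 1.

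The differences of Mir322, Mir503 and Mir542 were near or below the median difference among miRNA genes, and that of Mir351 was above it. On the scale of the log2 ratio of replicate 2 to replicate 1, computed from CPM with a pseudocount of 1, Mir322 was at -0.49, Mir351 at 1.01, Mir503 at -0.27 and Mir542 at -0.18. The median of the absolute value was 0.38 over the 4 members and 0.44 over the 474 genes tested. A larger absolute value was found in 46.4% of the tested genes for Mir322, in 18.8% for Mir351, in 66.2% for Mir503 and in 79.3% for Mir542. The median of the signed log2 ratio was -0.23 over the 4 members and 0.04 over all tested genes. Of the other genes of the cluster, Mir450b was at -0.76 and was not called (adjusted p = 0.133, same exact test), and Mir450-1 and Mir450-2 had too few reads to be tested.

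**Figure D4:**
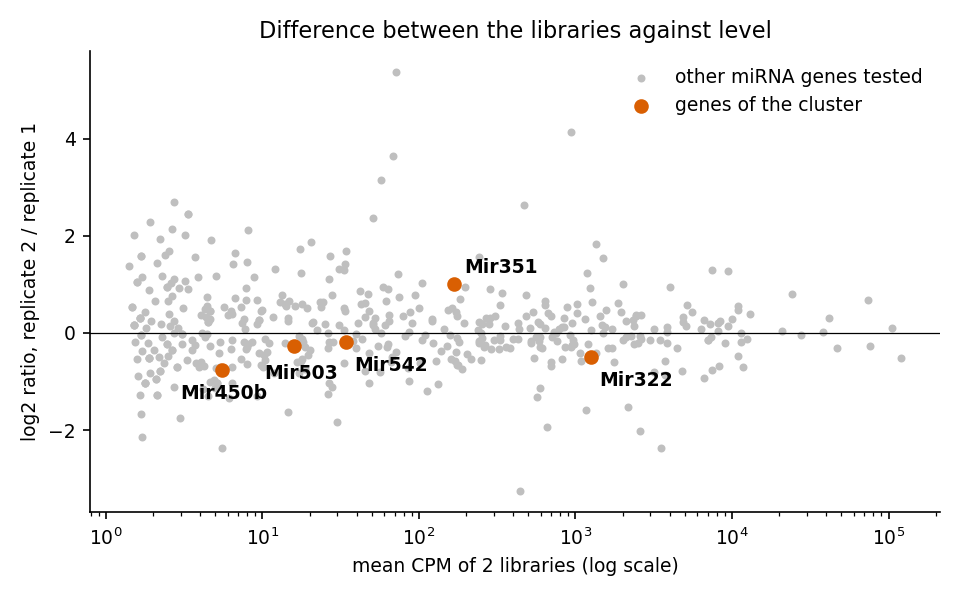
Log2 ratio of replicate 2 to replicate 1 (CPM with a pseudocount of 1) against the mean CPM of both libraries (log axis) for the 474 miRNA genes tested, in grey, with the tested genes of the cluster in orange. Mir351 lies above 0 at 1.01 and the other 4 cluster genes lie below it.

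Marker lists of other cell types also differed between the libraries. The astrocyte list was at 14463 CPM in replicate 1 and 11041 CPM in replicate 2, the oligodendrocyte list at 5341 and 2527 CPM, and the erythroid list at 1154 and 328 CPM. In each of these 3 lists, 2 of 2 genes were detected and called higher in replicate 1, the direction of Mir322. Of all tested genes, 26.4% were called higher in replicate 1 and 31.6% in replicate 2. Nothing is therefore read from a direction that a list shares with a member. The microglia and leukocyte list, with 2 of 3 genes detected (Mir142 and Mir150), was at 872 and 1301 CPM. Mir150, at a mean of 1022 CPM, and the undetected Mir223, at 3.33 CPM, were called higher in replicate 2, the direction of Mir351. Mir142, at a mean of 61.1 CPM, was not called (adjusted p = 0.329, exact binomial test on reads). Members of the endothelial and mural list and of the neuron list were called in opposite directions. The endothelial and mural list (3 of 3 detected) summed to 19436 and 15579 CPM, with Mir126a called higher in replicate 1 and Mir143 and Mir145a in replicate 2. The neuron list was called higher in replicate 2 for Mir128-1, Mir137 and Mir218-1 and in replicate 1 for Mir132, its most abundant gene, and Mir138-1. No gene of these 6 lists was at 0 in both libraries. Of the muscle list only Mir206 was called, higher in replicate 1, and no gene of the liver or pluripotency list was called. The part of any list in the values of the cluster was not tested, and in tissue RNA fewer cells of a type cannot be told apart from less of the RNA per cell.

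Among the genes that carry its seed, Mir322 held the third place by mean level, after Mir195a and Mir497. The order differed between the libraries. Mir322 was above Mir195a in replicate 1, at 1473 CPM, and below Mir195a and Mir497 in replicate 2, at 1049 CPM. The 11 miRNA genes with the seed AGCAGCA summed to 5942 CPM in replicate 1 and 6003 CPM in replicate 2, of which Mir322 gave 24.8% and 17.5%. Of the miR-15/16 family, 8 of the 9 gene names listed were found in the files and 6 were detected. Mir195a was highest on average with 1338 and 2671 CPM in replicates 1 and 2, followed by Mir497 with 1549 and 1165 CPM, both of a cluster on chromosome 11. Mir195a was called higher in replicate 2, as were Mir16-1 and Mir16-2, and Mir15a, Mir15b and Mir497 were called higher in replicate 1. The 3 and 3 calls among these 6 genes stand beside 26.4% and 31.6% of all tested genes, and nothing is read from them for the family. Reads of miR-16-5p, which comes from 2 genes, can be lost to several places, and the effect of this on the share of Mir322 was not tested.

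Mir351 was a minor source of its seed. The 6 miRNA genes with the seed CCCUGAG summed to 8937 and 10223 CPM, of which Mir351 gave 1.23% in replicate 1 and 2.19% in replicate 2. Mir125a alone was at 7603 and 8741 CPM. Of the 3 genes of the miR-125 family, Mir125a and Mir125b-1 were called higher in replicate 2, at 1.15-fold and 1.09-fold, and Mir125b-2 was called higher in replicate 1 at 1.09-fold. Of all tested genes, 31.6% were called higher in replicate 2 and 26.4% in replicate 1, and nothing is read from these calls for the family. miR-125b-5p has 2 genes, so its reads too can be counted apart. These sums are of gene counts, in which the 2 arms of a hairpin are not told apart.

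The other miRNA genes whose levels were most like those of each member were found by the Euclidean distance in log2(CPM + 1) over the 2 libraries. For Mir322 they were Mir497 (distance 0.17) and Mir376a (0.20), at 1549 and 1165 CPM and at 1297 and 1108 CPM in replicates 1 and 2. Mir351 was nearest to Mir1306 (0.33) and Mir380 (0.35), and Mir503 to Mir669l (0.22) and Mir670 (0.24). Mir542 was nearest to Mir193b (0.18) and Mir3093 (0.19). Mir497 lies opposite another annotated miRNA gene, and counted without strand it had no read. With 2 libraries the distance describes a like level and little else.

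Among 6 clusters with at least 4 detected genes, the reads were most concentrated in 1 gene here. Groups of miRNA genes on 1 strand with gaps of at most 10 kb and at least 4 detected genes numbered 6, among them the mir-17 cluster, the X-linked Mir532 cluster and the imprinted cluster led by Mir127. Mir322 took 84.9% of the summed mean CPM of its 7 genes, whereas the leading gene took 20.4% to 61.7% in the other 5 clusters. The highest detected gene was 229-fold above the lowest here, with a range of 15.7-fold to 4189-fold in the others. The log2 ratios of the detected genes spanned 1.77 here, from -0.76 for Mir450b to 1.01 for Mir351, and 0.99 to 1.94 in the others. In each of the 6 clusters at least 1 gene was called higher in replicate 1 and at least 1 higher in replicate 2. As 58.0% of all tested genes were called, nothing is read from such calls in both directions, those of Mir322 and Mir351 included. These are descriptions with no test, and the clusters differ in the number of their genes. Clusters with fewer detected genes were left out. In some of those the leading gene also stands far above its neighbours, so a high leading share is not particular to this cluster.

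**Figure D5:**
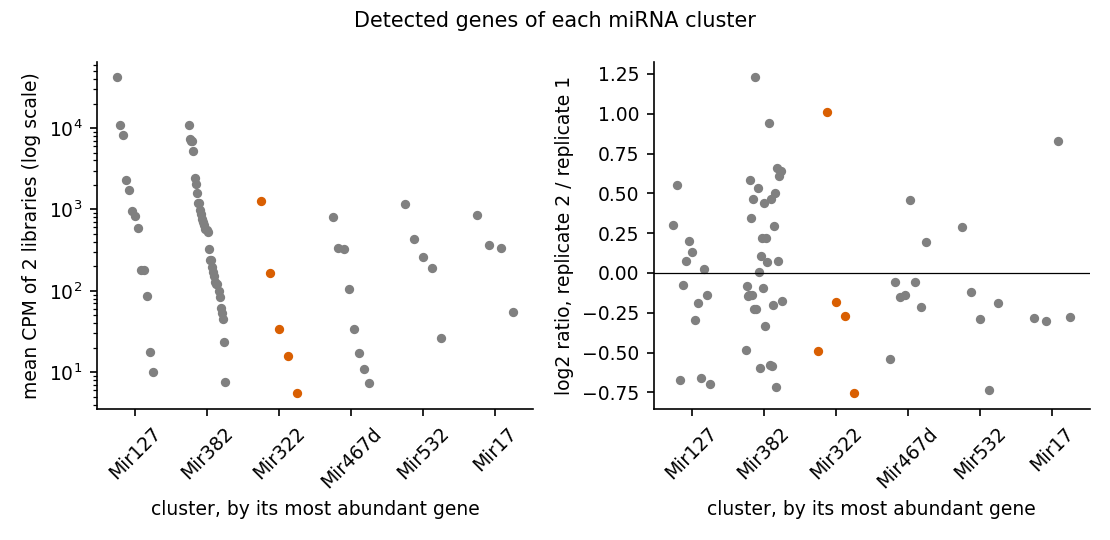
Mean CPM of both libraries (left, log axis) and log2 ratio of replicate 2 to replicate 1 (right) for each detected gene of the 6 clusters, named by their most abundant gene and with genes in order of level. In the Mir322 cluster (orange) the leading gene stands at 1261 CPM above the next at 167 CPM, and Mir351 alone has a log2 ratio above 0.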

How the data were processed

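The deposited files hold raw counts of reads per miRNA gene, made by the authors with assembly mm10 and GENCODE M21, per the notes deposited with them. Which aligner was used is not given in the sources used here. All 3 count columns lack names and were read as without strand, sense and antisense, since of the stranded columns the middle one summed to more reads in both libraries. Another 4 rows name no gene and hold 69.5% and 65.3% of the reads of replicates 1 and 2. They were left out of totals. CPM, shares and exact tests were computed from sense counts. The 4 members had no antisense read.

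The members and lists were chosen with earlier results of these data known. The text names the 4 members, the Mir450 genes, genes known to share a seed, the 2 nearest genes of each member and the leading genes of clusters. The other genes named are markers or X-linked genes. A gene was detected with 10 reads in each library and tested with a summed count of 10. Of the 7 cluster genes, 7 had a mature sequence and 6 a hairpin in the RefSeq table. The test was tried on simulated counts with counting error as their only noise. That trial does not cover noise of other kinds between the libraries. Tools edgeR (version 4.0.16) and DESeq2 (version 1.42.0) served only for alternative scalings. Python 3.11.15, scipy 1.17.1, pandas 2.3.3, numpy 2.4.6, matplotlib 3.10.9 and R 4.3.3 were used. The liver list, Mir122, was at 37.9 and 43.9 CPM.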

Additional observations from a re-analysis of the deposited data

How the results depend on the processing

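Each of the 58 recomputed values kept its direction and its side of the threshold, moved by less than the SD of the libraries, or, for counts of genes, lay within 1.5 times the value reported. With 2 libraries, the value of either alone always lies within 1 SD of their mean, so leaving out a library tests little here. The alternatives were TMM and DESeq2 scaling, totals without the most abundant gene, counts without strand, other count minimums, a pseudocount of 0.1 CPM, and either library alone. Mir322 and Mir351 were called, in opposite directions, under every setting of the test, with log2 ratios from -0.56 to -0.49 for Mir322 and from 0.94 to 1.02 for Mir351. The summed level of the 4 genes ranged from 1319 CPM to 1638 CPM with a library left out, and the share of Mir351 among their reads from 6.74% to 17.0%. At a minimum of 100 reads in each library, 3 of the 4 genes were detected, without Mir503. With no filter on low counts, 36.4% of 723 genes were called, and at a summed count of at least 100, 78.6% of 295. Depth limits Mir503 most, since 51 and 52 reads leave differences of up to 1.83-fold inside the interval. No paired analysis was possible because the 2 libraries form 1 group.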

Other observations

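On the X chromosome as a whole, 34 of 142 annotated miRNA genes were detected, or 23.9%, against 17.1% of all miRNA genes. Of the 41 X-linked genes tested, 9 were called higher in replicate 1, among them Mir322, and 20 higher in replicate 2, among them Mir351, by the exact binomial test on reads. These are 22.0% and 48.8% of them, against 26.4% and 31.6% of all genes tested. Their median log2 ratio of replicate 2 to replicate 1 was 0.25, against 0.04 over all genes tested. The calls in replicate 2 include the neighbours Mir1298, Mir448, Mir1264 and Mir764, with log2 ratios from 1.22 to 4.13. Calls of neighbouring genes need not be independent, so these shares do not describe the chromosome as a whole. The 6 X-linked genes above Mir322 were Mir652, Mir221, Mir98, Mir361, Mirlet7f-2 and Mir676, from 11407 CPM down to 2316 CPM on average. Whether the share of X-linked genes in either direction differs from that of other genes was not tested.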
